A study of Mus musculus with 48 samples.

Results

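The 12-h component of the mouse arcuate nucleus transcriptome is described here, that is, the difference between the mean of the libraries taken at ZT4 and ZT16 and the mean of those taken at ZT10 and ZT22. ZT is zeitgeber time, the hours since lights on, and with 4 time points 6 h apart this is the one contrast a 24-h cosine wave cannot produce. All 24 arcuate libraries of the 48 in the series entered it, and the other 24 came from the nodose ganglion, which holds the cell bodies of vagal sensory neurons. The study asked how loss of the clock repressors REV-ERBα and REV-ERBβ in liver cells affects rhythmic gene expression in the brain and in the vagal nerve. The arcuate mice were male and carried floxed alleles of both genes on a C57Bl6/J background (Rev-erba/b flox/flox). They ate chow, lived under 12 h of light and 12 h of dark at 27 °C, and were 10-12 weeks old at collection. Control mice had received AAV8-TBG-EGFP by tail vein, and HepDKO mice AAV8-TBG-Cre, at 6 to 10 weeks of age and 2 to 4 weeks before collection. The TBG promoter is active in hepatocytes, so Cre was directed at the liver and not at the brain. There were 3 libraries for every genotype at every time, and each library pooled the punched arcuate nuclei of 3 mice according to one description and of 3 to 4 according to another. The p-values below therefore measure the spread between pools.

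The arcuate nucleus lies at the base of the hypothalamus and holds the Agrp and Pomc neurons that sense hormones and nutrients and set hunger. Its neurons respond to activity within minutes by transcribing immediate early genes such as Fos, Egr1 and the Nr4a nuclear receptors. Heat-shock proteins fold proteins in the cytosol and are induced by the factor HSF1, and the chaperones of the endoplasmic reticulum (ER) are induced by XBP1 and ATF6 when secretory load rises. In mouse liver, genes of this ER stress response are known for peaks 12 h apart.

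A total of 16102 genes were tested in the arcuate libraries, whose depth ran from 15483922 to 20399718 counts. Markers of the labelled tissue were present in every library: Agrp was between 12.4 and 22.4 CPM (counts scaled to library size), Npy between 34.2 and 60.6, and Pomc between 45.8 and 109.8. Peptide genes of neighbouring nuclei were present as well, such as Oxt at a mean of 94.9 CPM and Avp at 166.3, which mark cells outside the arcuate nucleus. Features of single libraries bear on the results: HepDKO ZT4 replicate 3 stood apart on the first principal component, Control ZT22 replicate 1 on the second, and HepDKO ZT10 replicate 3 held 1914 counts of the female-specific RNA Xist where the next library held 10, against the label of male mice. Many results are given with and without these libraries, and for some genes only the number of fits with 1 library left out that kept the call. In bulk tissue, fewer cells of a type and less RNA per cell cannot be told apart.

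**Figure D1:**
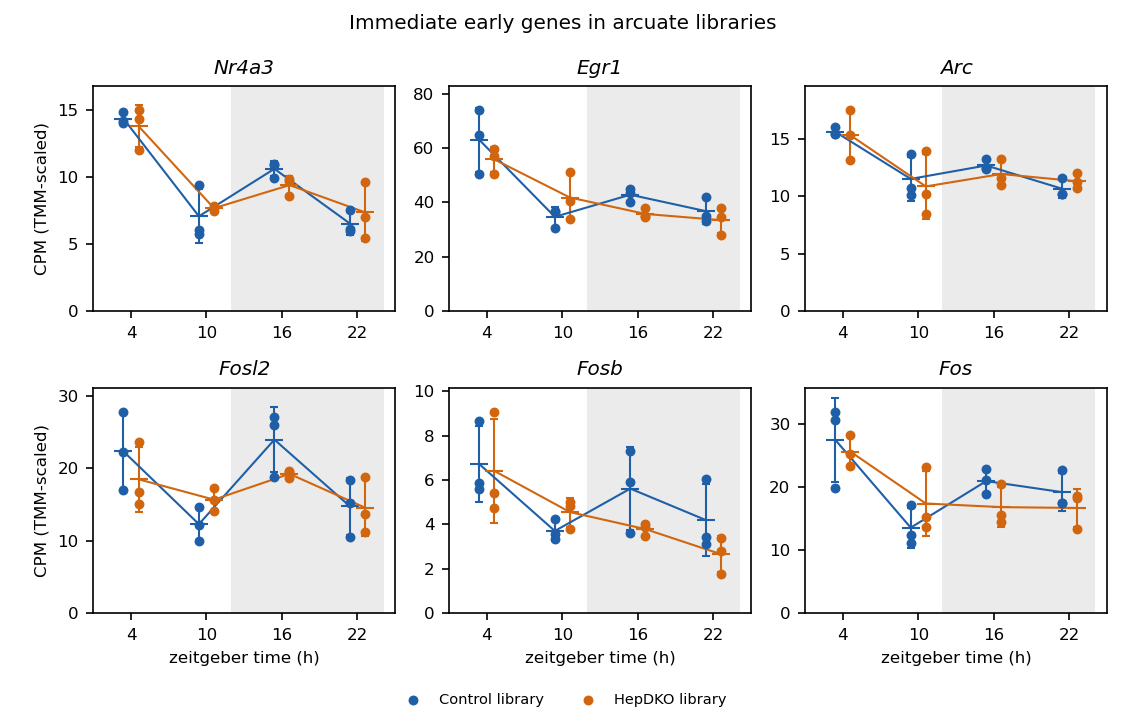
Nr4a3, Egr1, Arc, Fosl2, Fosb and Fos in the 24 arcuate libraries, as CPM (y axes, from 0) against ZT (x axes, h), with each point 1 library, colour the genotype, horizontal bars and whiskers the group mean and SD (n = 3), and grey the dark phase. Every Nr4a3 library of ZT4 (12.1 to 15.01 CPM) lies above all the others, Egr1 is high at ZT4 only, and Fosl2 is high at both ZT4 and ZT16 with wide scatter.

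Of all genes, 2 passed an adjusted p of 0.05 for the 12-h component averaged over the genotypes, both higher at ZT4 and ZT16 (0.0124% of genes tested; edgeR quasi-likelihood test with Benjamini-Hochberg adjustment). They were Nr4a3, which encodes the orphan nuclear receptor NOR-1, and Dnajb1, which encodes the HSP40 co-chaperone of HSP70. Below that threshold, 1143 genes (7.1%) had an unadjusted p under 0.05, 602 of them higher (3.74%) and 541 lower (3.36%). No gene had all 12 libraries of ZT4 and ZT16 on one side of all 12 libraries of ZT10 and ZT22. For scale, the 24-h component, which uses the other contrasts of the same libraries, called 622 genes (3.86%). That count was 287 to 387 without Control ZT4 replicate 1 or 3, Control ZT16 replicate 2 or 3, or HepDKO ZT16 replicate 2 or 3, and 1031 and 971 without HepDKO ZT4 replicates 2 and 3, 167 with cell marker covariates and 1075 with DESeq2. Leaving out 1 library gave between 2 and 10 genes for the 12-h component, with 10 without HepDKO ZT4 replicate 3, 6 without Control ZT22 replicate 3, and 4 without HepDKO ZT10 replicate 1 or HepDKO ZT22 replicate 1. DESeq2 called 20 genes, a fit with 1 surrogate variable 18, a fit with cell marker covariates 5, and a model of only genotype and the 12-h term 1.

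Nr4a3 (chr4:48045153-48086447, plus strand, mm10) had 2 maxima a day. Control pools gave 14.19, 14.88 and 14.07 CPM for ZT4, 6.08, 5.80 and 9.40 for ZT10, 9.98, 10.96 and 10.95 for ZT16, and 5.98, 6.11 and 7.57 for ZT22. HepDKO pools gave 14.38, 15.01 and 12.06 CPM for ZT4, 7.498, 7.89 and 7.68 for ZT10, 9.91, 8.61 and 9.73 for ZT16, and 9.64, 7.06 and 5.45 for ZT22. All 6 ZT4 libraries were above the other 18, and the ZT16 libraries lay between, overlapping ZT10 and ZT22 only through the 9.40 of a Control ZT10 pool and the 9.64 of a HepDKO ZT22 pool. The 12-h difference was 0.73 on the log2 scale (SE 0.084), a fold of 1.66, and its adjusted p was 5.41e-05 in the edgeR fit. It stayed past the threshold when each of the 24 libraries was left out in turn.

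A peak at a single time also loads on the 12-h contrast, so each called gene was split into its ZT4 side (ZT4 minus the mean of ZT10 and ZT22) and its ZT16 side (ZT16 minus the same mean). These side contrasts were added after seeing the data. For Nr4a3 the ZT4 side was 0.97 (SE 0.098, edgeR adjusted p = 3.21e-06) and the ZT16 side 0.48 (SE 0.10, adjusted p = 0.0127), on the log2 scale. The ZT16 value was lower than the ZT4 value (difference of -0.50, adjusted p = 0.0117). Both sides use the same ZT10 and ZT22 libraries, so pairs with no library in common were also tested: ZT4 exceeded ZT10 by 0.93 (SE 0.12, adjusted p = 0.000165) and ZT16 exceeded ZT22 by 0.52 (SE 0.12, adjusted p = 0.0323). Nr4a3 was the 1 gene of 16102 that passed in both of these pairs (0.00621%). The 12-h difference is the mean of these pairs, so a gene picked by it is favoured in advance to pass them. The pairs, and the exchanged ones below, therefore describe its shape and are no separate support. With the pairs exchanged, ZT4 against ZT22 gave 1.02 (adjusted p = 2.88e-05) and ZT16 against ZT10 gave 0.44, which missed the threshold (adjusted p = 0.0524), and no gene passed both of the exchanged pairs. With the mean levels of oligodendrocyte, tanycyte and ventromedial hypothalamus markers as covariates the ZT16 side of Nr4a3 was 0.46 and did not pass (adjusted p = 0.0712).

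The calls for the first pair of contrasts depended on single libraries. Nr4a3 no longer passed both without Control ZT16 replicate 2 or 3, Control ZT22 replicate 1 or 2, HepDKO ZT16 replicate 1, 2 or 3, or HepDKO ZT22 replicate 2 or 3, which left 0 genes. For the exchanged pairs, 1 gene passed without Control ZT10 replicate 3, Control ZT22 replicate 1 or 3, HepDKO ZT22 replicate 1 or 3, or HepDKO ZT4 replicate 3, and 1 passed with DESeq2.

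The immediate early genes as a list of 19 leaned higher at ZT4 and ZT16, and most of that lean sat at ZT4. For the 12-h component 18 of 19 had a positive difference, where 49% of all genes did, and the median was 0.32 on the log2 scale. Unadjusted p was under 0.05 for 12 of them, all higher, beside 3.74% of all genes in that direction. This count ran from 11 to 14 with 1 library left out. Nr4a3 was the 1 call in the list, and DESeq2 called 5. On the ZT4 side 4 of the 19 passed the adjusted threshold (Nr4a3, Egr1, Egr4 and Arc), of only 7 genes in the whole table, all higher (0.0435%; edgeR). Of the 19, 11 had an unadjusted p under 0.05 there, all higher, beside 4.39% of all genes in that direction. On the ZT16 side 3 passed (Nr4a3, Fosl2 and Atf3), of 211 higher genes in all (1.31%). That count was 1 without Control ZT16 replicate 2 or HepDKO ZT16 replicate 2, and 0 with the marker covariates.

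Egr1, an activity-induced zinc-finger transcription factor, showed the ZT4 pattern in both genotypes. Control libraries held 64.7, 74.0 and 50.4 CPM at ZT4 and HepDKO libraries 57.2, 59.6 and 50.7, whereas the other 18 libraries lay between 28.1 and 51.1. A single HepDKO ZT10 pool, at 51.1 CPM, overlapped the ZT4 range. The ZT4 side was 0.70 (SE 0.085, edgeR adjusted p = 0.000409), and the ZT16 side of 0.10 did not pass (adjusted p = 0.68). The 12-h difference of 0.40 (SE 0.072) fell short of the threshold, with an adjusted p of 0.0672.

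Arc, which encodes a protein that regulates synaptic AMPA receptors, had ZT4 values of 16.04, 15.38 and 15.39 CPM in the Control pools and 15.3, 13.1 and 17.5 in the HepDKO pools, and 8.43 to 13.97 CPM at the other times. All ZT4 pools but the lowest lay above every other pool. Its ZT4 side of 0.48 passed (SE 0.085, edgeR adjusted p = 0.0209). The call was lost without Control ZT4 replicate 1 (adjusted p = 0.09), Control ZT4 replicate 2 (0.0668), HepDKO ZT10 replicate 3 (0.058) or HepDKO ZT4 replicate 1 (0.0648). Egr4, a relative of Egr1, had a ZT4 side of 0.68 (adjusted p = 0.0424) that held in 8 of 24 fits with 1 library left out. The AP-1 subunits Fos and Fosb had ZT4 sides of 0.68 and 0.83 that did not pass (adjusted p = 0.0543 and 0.0731). Across all genes the ZT4 side counted between 3 and 19 calls with 1 library left out, with 19 without HepDKO ZT4 replicate 2, 14 without HepDKO ZT4 replicate 3, 12 without Control ZT16 replicate 1 or Control ZT22 replicate 3, 4 without Control ZT4 replicate 2 or HepDKO ZT10 replicate 3, and 3 without HepDKO ZT4 replicate 1. Among the immediate early genes the count of 4 was 6 without HepDKO ZT4 replicate 3, 7 without Control ZT4 replicate 3, and 2 without Control ZT4 replicate 1 or 2, HepDKO ZT4 replicate 1 or HepDKO ZT10 replicate 3.

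Fosl2, the AP-1 subunit FRA2, had sides of similar size at ZT4 and ZT16. Control libraries measured 22.2, 27.8 and 17.0 CPM at ZT4 and 18.8, 27.1 and 26.0 at ZT16, against 12.2, 9.93 and 14.7 at ZT10 and 18.4, 10.6 and 15.3 at ZT22. The HepDKO ranges were 15.1 to 23.6 CPM for ZT4, 14.2 to 17.3 for ZT10, 18.6 to 19.6 for ZT16 and 11.2 to 18.8 for ZT22. The groups overlapped at every pair of times when genotypes were pooled, except ZT16 above ZT10. The ZT4 side of 0.51 did not pass (edgeR adjusted p = 0.323) and the ZT16 side of 0.59 did (SE 0.14, adjusted p = 0.0289), in 17 of 24 fits with 1 library left out. Its 12-h difference was 0.55 (SE 0.11, adjusted p = 0.138).

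Several immediate early genes did not lean this way. Nr4a2, another receptor of the Nr4a family, had a 12-h difference of 0.04 (SE 0.19), Jun one of 0.05, Homer1 one of 0.05, Dusp1 one of 0.04 and Ier2 one of -0.04. The relatives Nr4a1 and Junb stood at 0.34 (unadjusted p = 0.00275) and 0.30 (unadjusted p = 0.00492), neither past the adjusted threshold by edgeR. Atf3, a stress-induced member of the ATF family, passed on the ZT16 side, at 0.89 (adjusted p = 0.0214), with a ZT4 side of 0.00. Its 12-h difference was 0.93 in Control and -0.04 in HepDKO. The ZT16 call was lost without Control ZT16 replicate 2 or HepDKO ZT16 replicate 2.

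**Figure D2:**
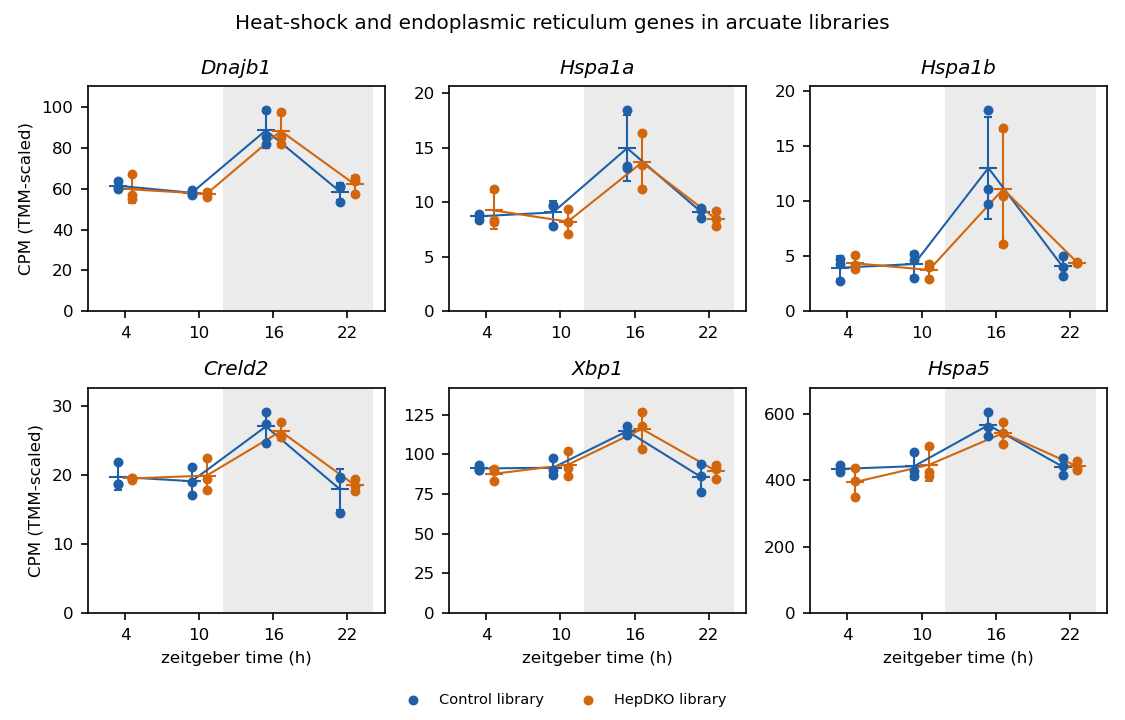
Heat-shock genes (top) and ER genes (bottom) in the 24 arcuate libraries, as CPM (y axes, from 0) against ZT (x axes, h), with each point 1 library, colour the genotype, horizontal bars and whiskers the group mean and SD (n = 3), and grey the dark phase. Dnajb1 lies between 82.0 and 98.6 CPM at ZT16 and between 53.7 and 67.5 CPM at the other 3 times, and the other 5 genes likewise stand out at ZT16 alone.

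Dnajb1 (chr8:83608193-83612653, plus strand, mm10) was high at ZT16 alone. Control libraries measured 82.0, 98.6 and 85.6 CPM at ZT16 and HepDKO libraries 85.6, 97.5 and 82.2. The 18 libraries of the other times ran from 53.7 to 67.5 CPM and did not overlap these, with means of 60.6 ± 4.6 (SD, n = 6) at ZT4, 57.8 ± 1.3 at ZT10 and 60.4 ± 4.2 at ZT22. The 12-h difference of 0.31 (SE 0.041, edgeR adjusted p = 0.000397) was made of a ZT16 side of 0.58 (SE 0.049, adjusted p = 7.79e-08) and a ZT4 side of 0.04 (SE 0.050, adjusted p = 0.825). Its 24-h component also passed (adjusted p = 5.54e-06). The 12-h call held in all 24 fits with 1 library left out, and was lost in a model of only genotype and the 12-h term (adjusted p = 0.687).

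Of the 18 heat-shock genes in the list, all had a positive 12-h difference, with a median of 0.08, and 9 had an unadjusted p under 0.05 (8 to 12 with 1 library left out), beside 3.74% of all genes. Dnajb1 was the 1 call for the 12-h component in this list, and DESeq2 called 3. On the ZT16 side 11 passed the adjusted threshold, all higher, beside 1.31% of all genes, and on the ZT4 side none did by edgeR (1 at an unadjusted p under 0.05, beside 8.99% of all genes in either direction). Hspa1b, an inducible HSP70, measured 9.71, 18.3 and 11.1 CPM in the Control pools of ZT16 and 10.5, 16.6 and 6.15 in the HepDKO pools, all above the 2.77 to 5.21 of the other times. Its ZT16 side was 1.54 (SE 0.18, edgeR adjusted p = 5.65e-05). The near-identical neighbour Hspa1a had 13.1, 18.5 and 13.3 CPM (Control) and 13.4, 16.4 and 11.2 (HepDKO) at ZT16, against 7.13 to 11.2 elsewhere, where the lowest ZT16 pool just cleared the highest other one, and a ZT16 side of 0.72 (SE 0.092, adjusted p = 6.83e-05). How reads shared by Hspa1a and Hspa1b were assigned is not given in the sources used here, so the split between them is uncertain.

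The other called heat-shock genes had ZT16 sides between 0.17 and 0.67. Hspb1, the small chaperone HSP27, had a ZT16 side of 0.67 (edgeR adjusted p = 0.0063), Chordc1, an HSP90 partner, 0.45 (adjusted p = 0.000465), Fkbp4, an HSP90 co-chaperone of steroid receptors, 0.25 (adjusted p = 0.00212), and Hspa8, the constitutive HSP70, 0.17 (adjusted p = 0.0166). Ahsa1, Dnaja1, Hsph1 and Stip1 completed the 11, at 0.17 to 0.30. The HSP90 genes Hsp90ab1 and Hsp90aa1 did not pass, at 0.09 and 0.08, and Hsp90aa1 had its highest mean at ZT22 (1402 CPM, against 1397 at ZT16). Bag3, an HSP70 co-chaperone, had sides of similar size, 0.22 at ZT4 and 0.29 at ZT16, and passed on neither (adjusted p = 0.522 and 0.0938). With single libraries left out the number called ran from 7, without Control ZT16 replicate 2 or HepDKO ZT16 replicate 2, to 12, and it was 7 with the marker covariates.

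The promoters of the inducible genes are shown because 7 of the 15 heat-shock genes with a promoter in RefSeq (46.7%) hold a pair of heat-shock element units, GAANNTTC read on both strands, in the 250 bases before the start site. Among all 12618 tested genes with such a promoter, 764 do (6.05%), and in the immediate early list 3 of 15 do (20%), Fosl2, Homer1 and Jun. The near-identical promoters of Hspa1a and Hspa1b do not count independently. The 7 were Dnaja1, Fkbp4, Hspa1a, Hspa1b, Hspb1, Hspd1 and Hspe1, of which Hspd1 and Hspe1 did not pass on the ZT16 side (adjusted p = 0.0657 and 0.286). Among the genes that passed there, Dnajb1, Chordc1, Ahsa1, Hsph1 and Stip1 have a promoter in the RefSeq table without this pair, and Hspa8 is missing from that table. A longer form, with a further unit TTC 2 bases before the pair and likewise read on both strands, was found in 55 of the 12618 promoters (0.436%) and in this list in those of Hspd1 and Hspe1. The Hspa1b promoter (chr17:34959239-34959488, minus strand, GRCm38.p6) is printed 5′ to 3′ with the match in capitals, 104 bases before the start, and matches that of Hspa1a at 247 of 250 bases.
Hspa1b: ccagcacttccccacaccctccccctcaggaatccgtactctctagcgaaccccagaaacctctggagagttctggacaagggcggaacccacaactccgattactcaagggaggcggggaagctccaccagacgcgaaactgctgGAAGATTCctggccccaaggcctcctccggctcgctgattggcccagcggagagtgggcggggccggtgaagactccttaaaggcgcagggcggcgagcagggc
For ER chaperones the ER stress response element, CCAAT and CCACG with 9 bases between them, read on both strands, was searched in the same window. It was found in 8 of 22 of their promoters (36.4%), those of Calr, Canx, Creld2, Dnajc3, Hsp90b1, Hspa5, Pdia6 and Syvn1, and in 20 of the 12618 (0.159%). Another element of the same response, TGACG followed directly by TGG, read on both strands, was found in 0 of the 22 and in 110 of the 12618 (0.872%). The Creld2 promoter (chr15:88819396-88819645, plus strand, GRCm38.p6) holds the ER stress response element on the minus strand, 126 bases before the start, in capitals.
Creld2: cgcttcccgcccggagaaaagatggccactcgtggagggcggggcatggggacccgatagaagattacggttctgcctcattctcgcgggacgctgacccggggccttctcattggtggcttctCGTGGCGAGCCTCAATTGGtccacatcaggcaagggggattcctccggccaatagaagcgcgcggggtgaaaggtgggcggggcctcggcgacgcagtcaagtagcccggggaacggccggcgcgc
Of the 8 genes with it, Creld2, Dnajc3, Hspa5 and Pdia6 passed on the ZT16 side and Calr, Canx, Hsp90b1 and Syvn1 did not. Xbp1, Sdf2l1, Pdia4 and Dnajb11 also passed there and have a promoter in the RefSeq table without the element, and Manf, which passed too, is missing from that table.

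ER chaperones and stress genes had no call for the 12-h component itself by edgeR, and 2 by DESeq2. Of 25, 19 had a positive difference, with a median of 0.04 on the log2 scale, and 9 had an unadjusted p under 0.05 by edgeR, all higher (7 to 10 with 1 library left out), beside 3.74% of all genes. On the ZT16 side 9 passed the adjusted threshold, all higher (6 to 12 with 1 library left out), beside 1.31% of all genes. On the ZT4 side none did by edgeR or DESeq2, with 1 higher and 3 lower at an unadjusted p under 0.05, beside 4.39% and 4.6% of all genes. Creld2, an ER-resident protein induced by ER stress, measured 27.4, 29.2 and 24.6 CPM in the Control pools of ZT16 and 25.9, 25.5 and 27.7 in the HepDKO pools, all above the 14.5 to 22.5 of the other 18 libraries. Its ZT16 side was 0.50 (SE 0.066, edgeR adjusted p = 7.96e-05) and its 12-h difference 0.28 (SE 0.055, adjusted p = 0.0672). Xbp1, the transcription factor of the response, lay between 103.2 and 126.8 CPM at ZT16 and between 76.6 and 102.3 elsewhere, with a ZT16 side of 0.36 (SE 0.047, adjusted p = 7.96e-05).

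The main ER chaperone, Hspa5 (BiP), lay between 509.0 and 605.5 CPM at ZT16, above the 349.7 to 502.4 of the other libraries. Its ZT16 side was 0.32 (edgeR adjusted p = 0.000433) and its 12-h difference 0.11 (adjusted p = 0.518). Sdf2l1, Manf and Pdia4, which serve folding and secretion, had ZT16 sides of 0.65, 0.36 and 0.36 (adjusted p = 0.00143, 0.00212 and 0.00074), and Dnajb11, Dnajc3 and Pdia6 smaller ones of 0.24, 0.27 and 0.18. The sensors Atf6, Ern1 and Eif2ak3 showed no call at either time, with ZT16 sides of -0.05, 0.02 and 0.03.

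**Figure D3:**
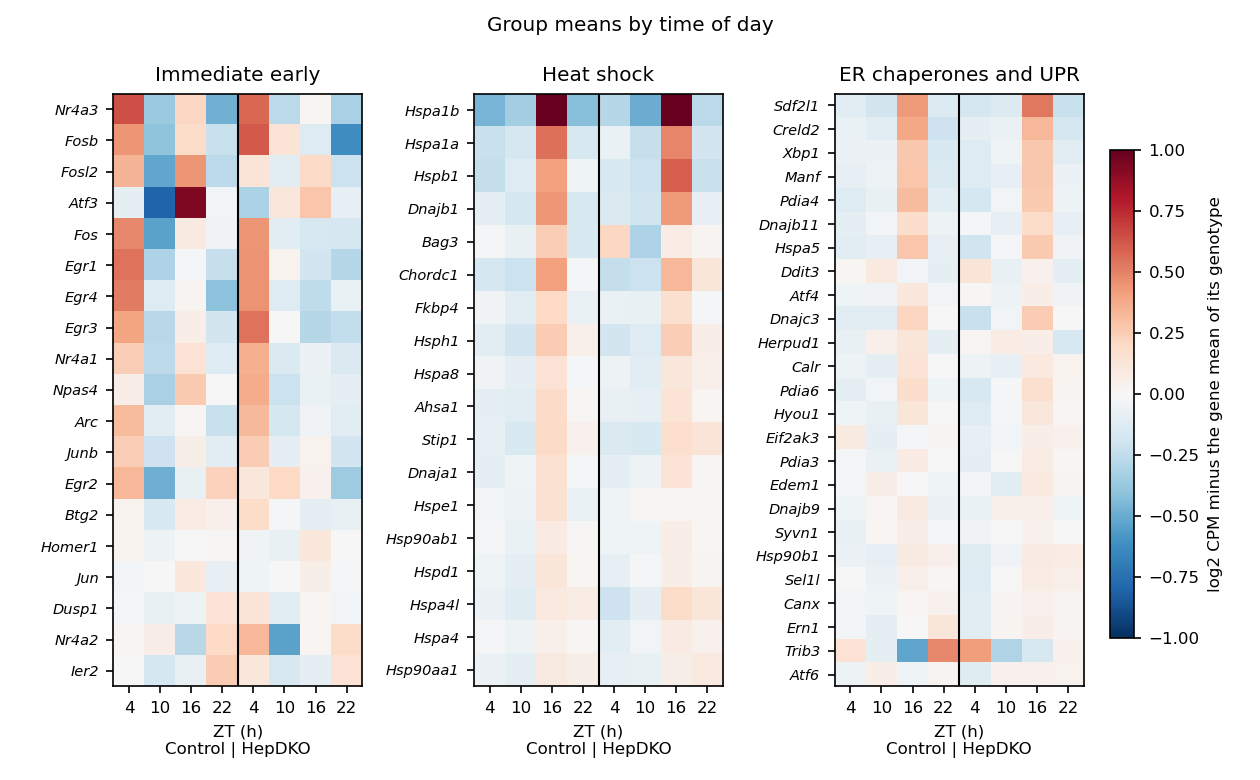
All members of the immediate early, heat-shock and ER lists (rows) at the 4 times in Control (left 4 columns) and HepDKO (right 4 columns), coloured by the log2 mean CPM of the group (with 0.1 added) minus that gene's mean over its genotype, with colours limited to between -1 and 1, which Hspa1b at ZT16 exceeds. Averaged over the genotypes, many immediate early genes, such as Nr4a3, Egr1, Egr4 and Arc, are highest at ZT4. Fosl2, Atf3, Jun and Homer1 are highest at ZT16, and Dusp1, Ier2 and Nr4a2 at ZT22. The heat-shock and ER genes that passed on the ZT16 side are highest at ZT16, whereas Hsp90aa1 is highest at ZT22 and Trib3 lowest at ZT16.

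The 50 genes with the lowest p for the 12-h component (unadjusted p under 0.001, 16.1 expected by the number of tests) were sorted by the sizes of their sides. Of these, 32 were higher and 18 lower at ZT4 and ZT16. The ZT16 side was more than 2 times the ZT4 side in 16 of the higher and 11 of the lower genes. The ZT4 side was more than 2 times the ZT16 side in 5 higher genes, Nr4a3, Egr1, Arc, Fosb and Fos, and in no lower gene. Both sides lay within 2 times of each other in 13, and had opposite signs in 5. Of the 50, 24 (48%) also passed for the 24-h component, beside 3.86% of all genes. The genes were picked by this contrast, so their counts describe the shape and test nothing.

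Insc, an adaptor of spindle orientation, also had sides of similar size, with means of 3.78 and 3.54 CPM at ZT4 and ZT16 against 2.49 and 2.32 CPM at ZT10 and ZT22. Its 12-h difference of 0.61 (SE 0.12) missed the threshold by edgeR (adjusted p = 0.0672), as did the ZT4 side of 0.66 (adjusted p = 0.0875). The ZT16 side of 0.55 passed (adjusted p = 0.0418), in 10 of 24 fits with 1 library left out. Other genes with even sides were Kctd15, at 0.22 and 0.22, Hspb8, a small heat-shock protein outside the list above, at 0.16 and 0.15, and Nab2, a corepressor of EGR factors, at 0.29 (ZT4) and 0.16 (ZT16), with none past the threshold for the 12-h component. Genes led by ZT16 and named after their values were seen were Hexim1, an inhibitor of the elongation factor P-TEFb, with a ZT16 side of 0.34 (adjusted p = 5.65e-05), the HSP70 relative Hspa2 at 0.37 (adjusted p = 5.02e-05), the co-chaperone Ahsa2 at 0.48 (adjusted p = 5.02e-05) and Dnajb4, a relative of Dnajb1, at 0.26 (adjusted p = 0.000237).

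Over all genes the ZT16 side called 343 genes (2.13%), 211 higher and 132 lower (0.82%), against 7 for the ZT4 side. With 1 surrogate variable these counts were 852 and 14, with marker covariates 119 and 3, and DESeq2 called 32 for the ZT4 side. ZT16 minus ZT4, which tests the difference between the sides, called 802 genes (4.98%), 446 higher and 356 lower, among them 12 of the 18 heat-shock and 12 of the 25 ER genes, all higher at ZT16, and 5 of the 19 immediate early genes, 4 of them higher at ZT4. That count was 374 to 526 without any 1 of the Control ZT4 replicates, Control ZT16 replicate 2 or 3, or HepDKO ZT16 replicate 2 or 3, 1356 without HepDKO ZT4 replicate 2, and 136 with the marker covariates. The ZT16 count ran from 113 to 777 with 1 library left out: 777 without HepDKO ZT4 replicate 3, 113, 204 and 216 without HepDKO ZT16 replicates 2, 1 and 3, 122 and 220 without Control ZT16 replicates 2 and 3, and 223 and 224 without HepDKO ZT10 replicates 1 and 2. Among the markers of oligodendrocyte precursors Olig2 passed as higher at ZT16 (side of 0.25, edgeR adjusted p = 0.016), and Pdgfra, Olig1, Gpr17 and Cspg4 did not pass. Ependymal cells line the ventricle beside the arcuate nucleus, and 1 of their 5 markers, Foxj1, passed as higher at ZT16. All 5 had a positive 12-h difference (median 0.16, beside -0.0016 over all genes). At an unadjusted p under 0.05, 2 were higher (Tmem212 and Foxj1), beside 3.74% of all genes, and Foxj1, the factor of motile cilia, had a ZT16 side of 0.35 that passed (adjusted p = 0.0117) except without HepDKO ZT16 replicate 2. Their summed level was 63.0 to 82.0 CPM at ZT16, 55.0 to 67.7 at ZT4, 54.5 to 67.3 at ZT10 and 44.7 to 70.9 at ZT22. This sum was led by Foxj1, with means of 33.7 CPM at ZT16 and 26.0 at ZT4. Tmem212 (8.1 and 7.9) and Rarres2 (8.2 and 7.8) differed little between these times. Ccdc153 (15.1 and 15.7) and Dynlrb2 (5.46 and 5.53) were not higher at ZT16. The part of these markers in the ZT16 results was not tested. The marker covariates were those of oligodendrocytes, tanycytes and the ventromedial nucleus, and held no ependymal marker. With them Dnajb1 was among the 119 genes that passed on the ZT16 side, at 0.54.

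Of the cholesterol synthesis genes that passed a test at ZT16, all were lower. Of 21, 19 had a negative 12-h difference, with a median of -0.05 on the log2 scale, and none passed by edgeR or DESeq2. Unadjusted p was under 0.05 by edgeR for 3, Stard4 and Insig1 among them, all lower, beside 3.36% of all genes. That count was 1 without Control ZT10 replicate 2, and 5 or 6 without Control ZT4 replicate 3, Control ZT22 replicate 2, HepDKO ZT4 replicate 1 or 2, or HepDKO ZT16 replicate 3. On the ZT16 side 7 passed as lower, beside 0.82% of all genes, among them Insig1, which retains the sterol sensor in the ER, at -0.33 (adjusted p = 0.00304). The 7 became 1 to 4 without Control ZT10 replicate 1 or 2, any Control ZT16 replicate, HepDKO ZT10 replicate 1 or 2, HepDKO ZT16 replicate 1 or 2, or HepDKO ZT22 replicate 1 or 3, and 2 with the marker covariates.

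Of 20 core clock genes, none passed for the 12-h component by edgeR or DESeq2. At an unadjusted p under 0.05, 1 was higher (Nfil3) and 1 lower (Ciart), near the 7.1% of all genes at that level in either direction. Nr1d1 and Nr1d2, the genes targeted in liver, had 12-h differences of 0.03 (SE 0.043) and -0.03 (SE 0.051), both with an edgeR adjusted p of 0.934. In Nr1d1 this value of near 0 was the mean of opposite sides: it was higher at ZT4 by 0.32 (adjusted p = 0.00651) and lower at ZT16 by 0.26 on the log2 scale (value -0.26, adjusted p = 0.00928). Nr1d1 overlaps Thra on the other strand, and the strand setting of the counts is not given in the sources used here. Nfil3, a repressor of D-box genes, stood at 0.34 (adjusted p = 0.3).

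The feeding list held the peptide genes Agrp, Npy, Pomc and Cartpt, and also Pcsk1, Pcsk2, Cpe and Otp, which encode no feeding peptide. None of its 8 genes had an unadjusted p under 0.05 by edgeR for the 12-h component. Of all genes 7.1% did, a share at which a list this short can hold none. Agrp, which drives hunger, had a difference of -0.07 (SE 0.10), Npy one of -0.04, Pomc, the precursor of the satiety peptide α-MSH, 0.14 (SE 0.14), and the convertase Pcsk1 -0.10. The 21 genes of the hormone receptor list, which includes Socs3, not a receptor, held no member at that level by edgeR. Nor did 15 other neuroendocrine genes, 10 neuronal markers, 10 oligodendrocyte markers, 77 ribosomal protein genes and 37 proteasome genes. This stands beside the same 7.1%, and for the shorter of these lists a count of 0 lies near that share. Among glutamate and GABA receptor genes 5 of 38 were lower at that level, such as Gabrg3 and Gria2, beside 3.36% of all genes, and among ion channel genes 7 of 99 were higher, beside 3.74%, and 2 lower, Kcnc1 and Cacna1a among the higher ones. None of these was called.

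**Figure D4:**
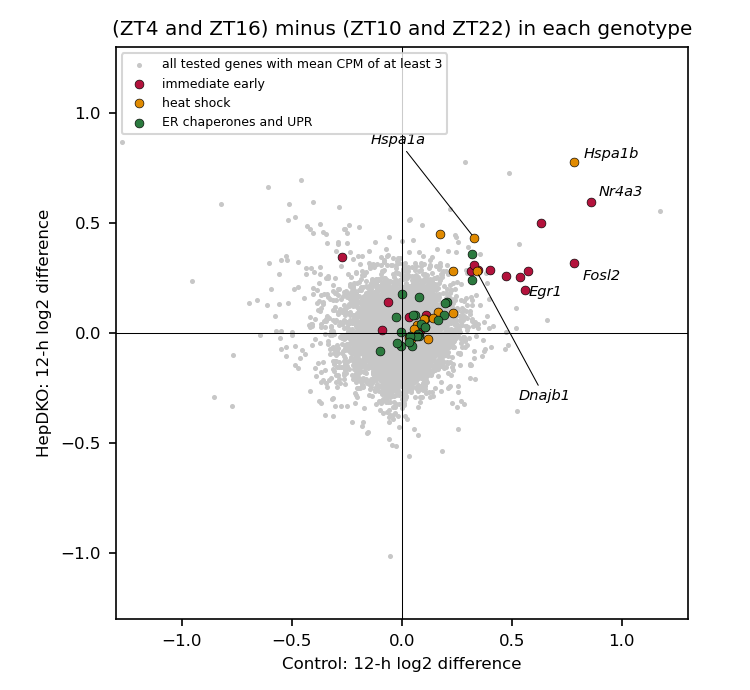
The 12-h log2 difference in HepDKO (y axis) against that in Control (x axis), each from its own 12 libraries, for genes with a mean of at least 3 CPM (grey), with immediate early, heat-shock and ER genes coloured. The cloud of all genes is round, and Nr4a3 (0.86 in Control, 0.60 in HepDKO), Dnajb1, Hspa1a and Hspa1b lie above 0 on both axes.

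The genotypes use separate libraries, so each gives its own 12-h difference. They share a fit and its spread estimate, so the p-values and calls in each also depend on the libraries of the other. Control called 4 genes (0.0248%; edgeR, with 835 or 5.19% at an unadjusted p under 0.05), 3 higher (0.0186%; Nr4a3, Dnajb1 and Prokr2) and 1 lower, a predicted gene. It called 2 with marker covariates and 7 with DESeq2. HepDKO called 0 by edgeR (1056 at an unadjusted p under 0.05, 6.56%), 1 by DESeq2 or with marker covariates, and 2 with 1 surrogate variable. The difference between genotypes was tested directly and called 0 genes, with 668 at an unadjusted p under 0.05 (4.15%) and 0 by DESeq2. The Control count was 1 without Control ZT4 replicate 1 or 2, Control ZT10 replicate 1, 2 or 3, Control ZT16 replicate 2 or Control ZT22 replicate 3, and 2 without Control ZT16 replicate 1 or Control ZT22 replicate 1. The HepDKO count was 2 without HepDKO ZT4 replicate 3 and 1 without HepDKO ZT22 replicate 1. Nr4a3 stood at 0.86 in Control (SE 0.12, adjusted p = 0.00172) and at 0.60 in HepDKO (SE 0.12, adjusted p = 0.411), and the difference of -0.26 (SE 0.17) had an adjusted p of 0.984. In HepDKO it passed without HepDKO ZT22 replicate 1 (adjusted p = 0.0234) or HepDKO ZT4 replicate 3 (adjusted p = 0.0444). Dnajb1 stood at 0.34 in Control (adjusted p = 0.0282) and 0.28 in HepDKO (adjusted p = 0.411).

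Across all genes the sign of the 12-h difference was shared between genotypes for 52.9%. Of the 28 Control genes with an unadjusted p under 0.001, 25 had the same sign in HepDKO (89.3%), and of the 27 such HepDKO genes, 19 had the same sign in Control (70.4%). Of the immediate early genes 15 of 19 were positive in both genotypes, beside 25.6% of all genes. Their medians were 0.34 in Control and 0.26 in HepDKO, with 11 and 5 members higher at an unadjusted p under 0.05, beside 2.73% and 3.23% of all genes. The 5 became 2 and 3 without HepDKO ZT22 replicate 3 and HepDKO ZT10 replicate 2, 8 without Control ZT4 replicate 3 or HepDKO ZT22 replicate 1, and 9 without HepDKO ZT10 replicate 1.

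Prokr2, the receptor for the peptide prokineticin 2, a signal from the suprachiasmatic clock, was called in Control and had a HepDKO value near 0. Its Control pools gave 7.88, 7.03 and 6.97 CPM for ZT4, 5.03, 4.99 and 5.96 for ZT10, 10.9, 10.5 and 7.36 for ZT16, and 5.98, 4.13 and 5.72 for ZT22, so that every ZT4 and ZT16 value was above every ZT10 and ZT22 value. HepDKO pools ranged from 5.74 to 6.51 CPM for ZT4, 5.08 to 6.53 for ZT10, 6.94 to 8.47 for ZT16 and 6.68 to 8.42 for ZT22, and overlapped. The Control difference was 0.66 (SE 0.12, edgeR adjusted p = 0.0282, called in 15 of 24 fits with 1 library left out) and the HepDKO difference 0.06 (adjusted p = 0.94). The difference between them of -0.60 (SE 0.16) did not pass (adjusted p = 0.984). Prokr2 was picked by the Control contrast, so the separation of its Control pools describes its shape and tests nothing further.

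The sizes of gene groups that leaned one way in a single genotype moved with single libraries. Of 79 oxidative phosphorylation genes, 20 were higher in HepDKO at an unadjusted p under 0.05, such as Cox6a1 and Atp5j2, beside 3.23% of all genes, and none in Control, where 1 was lower. The count of 20 was 7 without HepDKO ZT4 replicate 3, 9 without HepDKO ZT16 replicate 1, 12 without HepDKO ZT10 replicate 2 or 3, 34 and 32 without HepDKO ZT4 replicates 1 and 2, and 9 with the marker covariates. Of 16 glucocorticoid-induced genes, 6 were lower in Control at an unadjusted p under 0.05, among them Map3k6 and Sgk1, beside 2.45% of all genes, and 0 were higher or lower in HepDKO. This count was 1 without Control ZT4 replicate 3, Control ZT16 replicate 1 or Control ZT22 replicate 1, 2 without Control ZT10 replicate 3 or Control ZT16 replicate 2, 3 without Control ZT4 replicate 1 or 2, and 1 with the marker covariates. In neither group did a gene pass the test of the difference between genotypes.

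**Figure D5:**
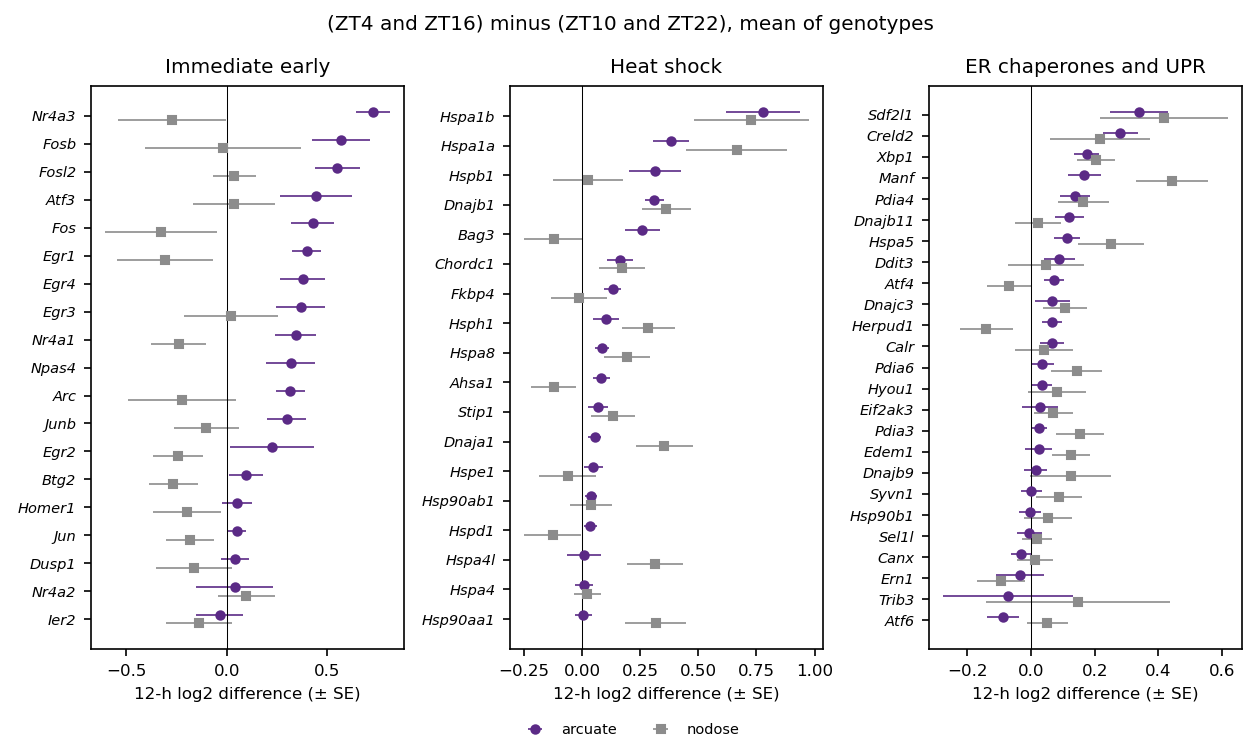
The 12-h log2 difference (x axes) with its SE in the arcuate nucleus (circles) and the nodose ganglion (squares), 24 libraries each, for the members of the 3 lists (rows), with no square where a gene was not tested in the nodose ganglion. Nr4a3 stands at 0.73 in the arcuate nucleus and -0.27 in the nodose ganglion, while Dnajb1, at 0.31 and 0.36, is above 0 in both.

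The nodose ganglion gave the same contrast in 24 other libraries, whose depth of 1813994 to 10422914 counts lay below that of every arcuate library. It called 0 of 14867 genes (1029 at an unadjusted p under 0.05, 6.92%; 8 genes by DESeq2). The difference between the tissues called 0 of 17478 genes (1248 at an unadjusted p under 0.05, 7.14%; 41 genes by DESeq2), so no gene can be called particular to the arcuate nucleus by edgeR. Without the nodose HepDKO ZT4 replicate 3 it called 5 genes, and without the nodose Control ZT10 replicate 1 it called 1. Nr4a3 had a nodose difference of -0.27 (SE 0.27, adjusted p = 0.814), with 0.49 to 5.83 CPM for ZT4, 5.56 to 25.2 for ZT10, 4.11 to 11.1 for ZT16 and 1.81 to 5.91 for ZT22. The arcuate minus nodose value for Nr4a3 was 1.00 (SE 0.27, adjusted p = 0.345).

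Dnajb1 had a nodose difference of 0.36 (SE 0.10, adjusted p = 0.654), with 28.1 to 51.9 CPM at ZT16 above the 15.7 to 29.9 of the other times save for an overlap of one ZT16 pool with the top of ZT4. In the nodose ganglion 7 of 18 heat-shock genes and 4 of 25 ER genes were higher at an unadjusted p under 0.05, beside 3.61% of all genes, with medians of 0.15 and 0.09. Of 17 immediate early genes none was higher and 1 was lower at that level, beside 3.32% of all genes, with a median of -0.18. For the difference between tissues, 8 of 19 immediate early genes, 4 of 18 heat-shock genes and 2 of 25 ER genes had an unadjusted p under 0.05, beside 7.14% of all genes, and none passed the adjusted threshold by edgeR. The 8 immediate early genes all had a higher value in the arcuate nucleus. Of the heat-shock genes Bag3 was higher there (0.39) and Dnaja1, Hsp90aa1 and Hspa4l were lower (-0.29, -0.30 and -0.30), and of the ER genes Herpud1 was higher (0.21) and Manf lower (-0.27), all without passing the adjusted threshold. The labels describe different library preparations for the 2 tissues, and the effects of tissue and of preparation cannot be told apart here.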

How the data were processed

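RNA was sequenced from 24 pools of arcuate punches and 24 pools of nodose ganglia. The authors deposited whole-number counts per gene symbol for 25229 symbols. The submitters' processing notes name FastQC 0.11.7, Trim Galore 0.6.10, STAR 2.7.10b and the mm10 build, without giving their roles. The counting tool, annotation and strand setting are not given in the sources used here. Every column matched 1 sample by its name.

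Genes passing filterByExpr were fitted with edgeR 4.0.16 (R 4.3.3, limma 3.58.1), with TMM factors, robust quasi-likelihood dispersions and 1 mean for each genotype and time, and p-values were adjusted by Benjamini-Hochberg over all genes tested, with a threshold of 0.05. The 12-h component is the mean of ZT4 and ZT16 minus the mean of ZT10 and ZT22. The fit was tested on simulated data. Printed levels are CPM per library, and folds are edgeR log2 estimates. Alternatives used DESeq2 1.42.0, its size factors, a fit without the filter, a surrogate variable (sva 3.50.0), marker covariates, other models, the replicate number as a block, and each library left out.

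Named genes were those with the lowest p for each test and the largest differences among calls, up to 4 of each list by p, and called chaperones. The 12-h contrast, its lists and its members were chosen with earlier results of these data known, and side contrasts, pairs of times and some further genes were added after seeing the data. Symbols were matched to GENCODE M21 (24366 of 25229) for positions and to RefSeq for promoters. A few genes of the lists are counted but not reported here by name.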

Additional observations from a re-analysis of the deposited data

How the results depend on the processing

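For the 12-h component over both genotypes, the count of 2 genes became 18 with 1 surrogate variable, 5 with marker covariates, 20 with DESeq2 (15 higher, 5 lower) and 1 when the model held only genotype and the 12-h term, where Dnajb1 no longer passed (adjusted p = 0.687). Nr4a3 passed in all 10 alternatives. The cause of these shifts was not tested. Control went from 4 to 2 with marker covariates and 7 with DESeq2, and HepDKO from 0 to 2 with the surrogate variable and 1 with marker covariates or DESeq2. For the 24-h component, 622 became 167 with marker covariates and 1075 with DESeq2. The first pair of time contrasts went from 1 to 0 with marker covariates, and the exchanged pair from 0 to 1 with the surrogate variable, DESeq2 or no filter. ZT16 calls went from 343 to 852 with the surrogate variable and 119 with marker covariates, ZT16 minus ZT4 from 802 to 136 with marker covariates, and ZT4 calls from 7 to 14, 3 and 32 with the surrogate variable, marker covariates and DESeq2. DESeq2 called 8 genes in the nodose ganglion and 41 between tissues, where edgeR called 0.

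With 1 library left out, counts ran from 2 to 10 (12-h component), 1 to 5 (Control), 0 to 2 (HepDKO), 0 to 0 (difference between genotypes), 287 to 1031 (24-h), 113 to 777 (ZT16), 374 to 1356 (ZT16 minus ZT4), 3 to 19 (ZT4), 0 to 1 (each pair of contrasts), 0 to 1 (nodose, 1 without HepDKO ZT22 replicate 3) and 0 to 5 (between tissues). With the replicate number as a block, the counts were 2, 4 in Control, 0 in HepDKO, 677 for 24 h, 380 for ZT16, 845 for ZT16 minus ZT4 and 8 for ZT4. The labels give the numbers no shared source, and they were not taken as pairs: deviations of same-numbered libraries correlated with a median of 0.02 (-0.01 for other numbers) and a lowest value of -0.13. That 16 of 24 libraries correlated best with their own number is a hint from the data, not the design. Of 4152 values of named genes under the other alternatives, 4070 kept their side of the threshold, 60 newly passed, 22 no longer passed and 0 called values reversed, while 71 values that were never called changed sign.

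With 3 pools per group, differences of about 5 SE could still miss the adjusted threshold, as for Creld2 (0.28, SE 0.055, adjusted p = 0.0672), and genes near 1 CPM, such as Atf3, also carry more counting error.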
